A study of Saccharomyces cerevisiae with 24 samples.

Results

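Starvation was compared with exponential growth (log phase) in budding yeast, Saccharomyces cerevisiae, that lacked MUD1. The comparison rests on 6 of the 24 RNA-sequencing libraries of the series, the 3 mud1D libraries of log phase and the 3 of starvation, chosen by genotype and growth state as the labels give them. All strains are of the BY background, and all libraries carry the label of batch 2. The other 18 libraries come from WT, from a deletion of NAM8 (nam8D) and from a point mutant of HSH49 (hsh49::Q24P), each with 3 log-phase and 3 starvation libraries. The medium was the same for every strain, a synthetic one that held 2% glucose with lysine, uracil, leucine and histidine as supplements, and the starvation cultures were taken at 48 h. The labels name 1 strain for each genotype, 28A8 for mud1D, 10H3 for WT, 28H5 for nam8D and a number for the point mutant (hsh49::Q24P_log_2863), and do not say whether the 3 biological replicates of a group came from separate transformants. WT and mud1D differ in more than MUD1: LEU2, a marker gene of leucine synthesis, stood at a mean of 5191 TPM in WT and of 3.37 TPM in mud1D in log phase, and URA3, a marker of uracil synthesis, was listed at 0 in all 6 mud1D libraries.

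Mud1 is the yeast counterpart of the mammalian U1-A protein, a subunit of the U1 snRNP, the RNA-protein particle that pairs with the 5′ splice site at the start of an intron. Yeast lives without it. When glucose runs out, budding yeast lifts glucose repression, turns to respiration of ethanol and acetate, makes sugar through the glyoxylate cycle and gluconeogenesis, and winds down ribosome production and cell division. Few yeast genes have introns, and most of the intron-containing RNA of a growing cell codes for ribosomal proteins.

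The unit of all levels is the TPM, a length-corrected abundance scaled to the same total in every library, so that a level is a share of the RNA measured. Library totals were between 999639 and 999881 TPM, and sequencing depth, which such values do not keep, is unknown. Differences are starvation minus log phase on the log2(TPM + 1) scale with their standard error (SE), from a limma model of all 24 libraries, and they understate the change of low genes. A gene is said to have changed, risen or fallen where the Benjamini-Hochberg adjusted p over 6449 genes was under 0.05 and the difference was at least 1 on the log2 scale. The 3 starved libraries of mud1D correlated with each other across genes at r from 0.98 to 0.992 and the log-phase ones at 0.989 to 0.996. The median gene was 0.36 higher in starvation. RNAs of the 92 rows named as spike-ins made up 0.874%, 0.870% and 0.934% of the TPM in log phase and 1.79%, 1.86% and 1.34% in starvation. With libraries scaled to them, which assumes the same added amount in each, the median gene was 0.42 lower, so a change in a gene's share and a change in the total RNA of the culture cannot be told apart here. In a bulk culture, fewer cells that express a gene and less of its RNA per cell cannot be told apart either. That the groups hold biological replicates is taken from the labels.

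Of the 6449 genes 1820 (28.2%) rose and 959 (14.9%) fell in mud1D starvation, and 5221 passed the adjusted threshold at any size. Counts of list members that rose or fell in mud1D are to be read against these shares. After each library was centred on its median there were 1209 higher and 1334 lower genes, and with spike-in scaling 677 and 2023, so the balance of rises and falls depends on the scaling. The 12 largest rises among coding genes with at least 10 TPM in a group were carbon source genes for the most part. JEN1, the plasma membrane carrier of lactate and pyruvate, went from 3.86, 2.87 and 2.58 TPM in log phase to 4889, 2970.3 and 1561 TPM in starvation (9.44 ± 0.39, limma adjusted p = 1.05e-14). The peroxisomal citrate synthase CIT2 went from 23.3, 26.2 and 22.5 TPM to 6847, 4782 and 3310.4 TPM (7.58 ± 0.23). AGX1, which makes glycine from glyoxylate, went from 13.6, 13.4 and 11.8 TPM to 1184, 1119.8 and 1141 TPM (6.37 ± 0.075), with almost no spread among the starved libraries. In JEN1 and CIT2 the first starved library was the highest and the third the lowest, but all 3 lay far above log phase.

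The 12 largest falls included cell wall, daughter-cell, glycolysis and histone genes. UTR2, a transglycosidase of the cell wall, went from 325, 347 and 425 TPM to 2.71, 4.29 and 3.51 TPM (-6.35 ± 0.13, limma adjusted p = 3.06e-19). OPT2, of the oligopeptide transporter family, went from 301, 353 and 407 TPM to 8.02, 8.31 and 5.90 TPM (-5.40 ± 0.16). AIM20 went from 71.2, 75.4 and 83.5 TPM to 1.06, 0.732 and 0.402 TPM (-5.50 ± 0.13). The absence of overlap was part of how these genes were chosen, and the starved libraries of each of the 3 lay within a few TPM of each other.

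**Figure D1:**
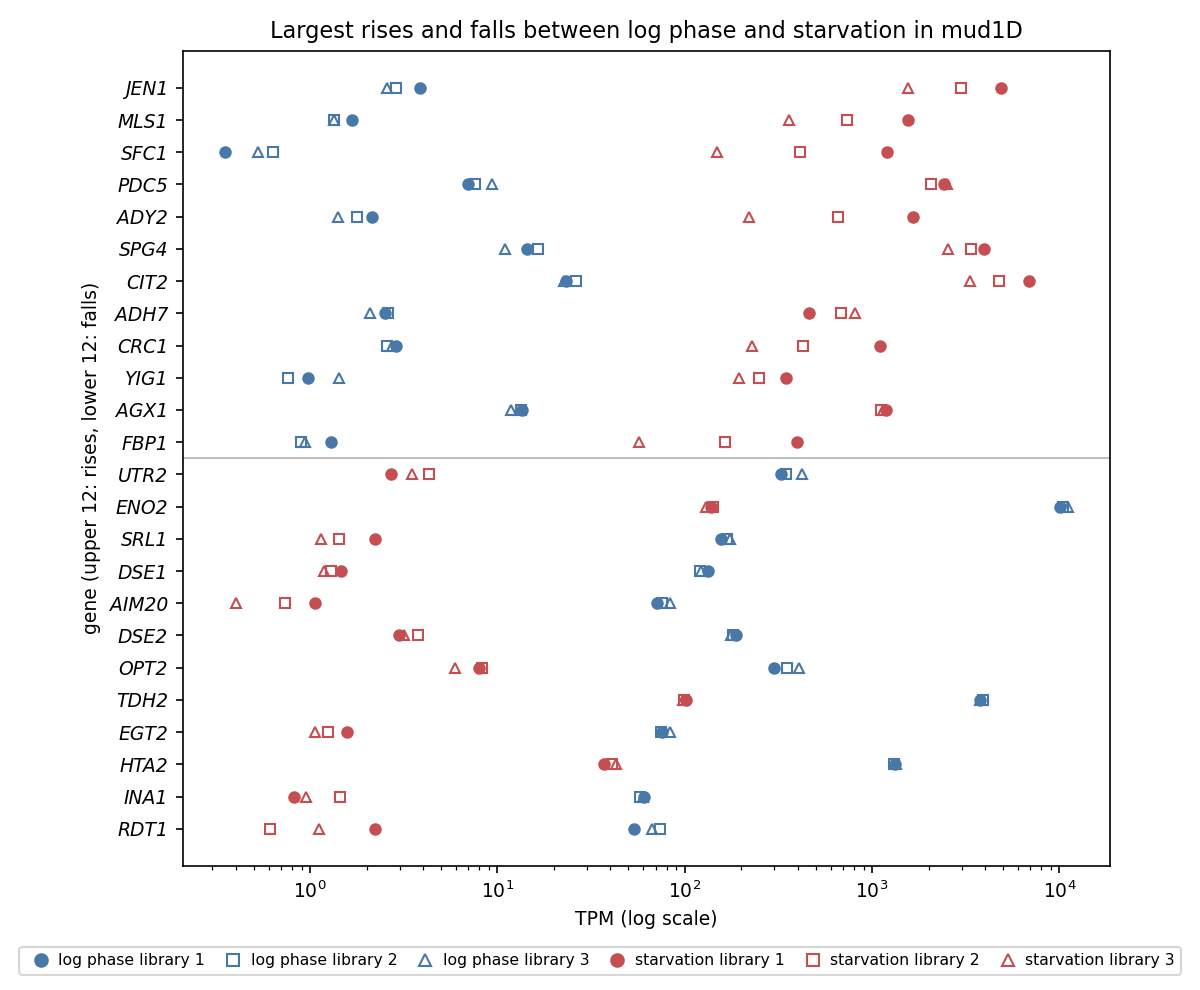
TPM in each of the 6 mud1D libraries (log axis) for the 12 largest rises and the 12 largest falls among coding genes with a group mean of at least 10 TPM and no overlap between the groups. Each point is 1 library. The starved libraries of SFC1, ADY2, FBP1 and MLS1 are spread more widely than those of falling genes such as UTR2 and AIM20, and those of AGX1 are not.

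**Figure D2:**
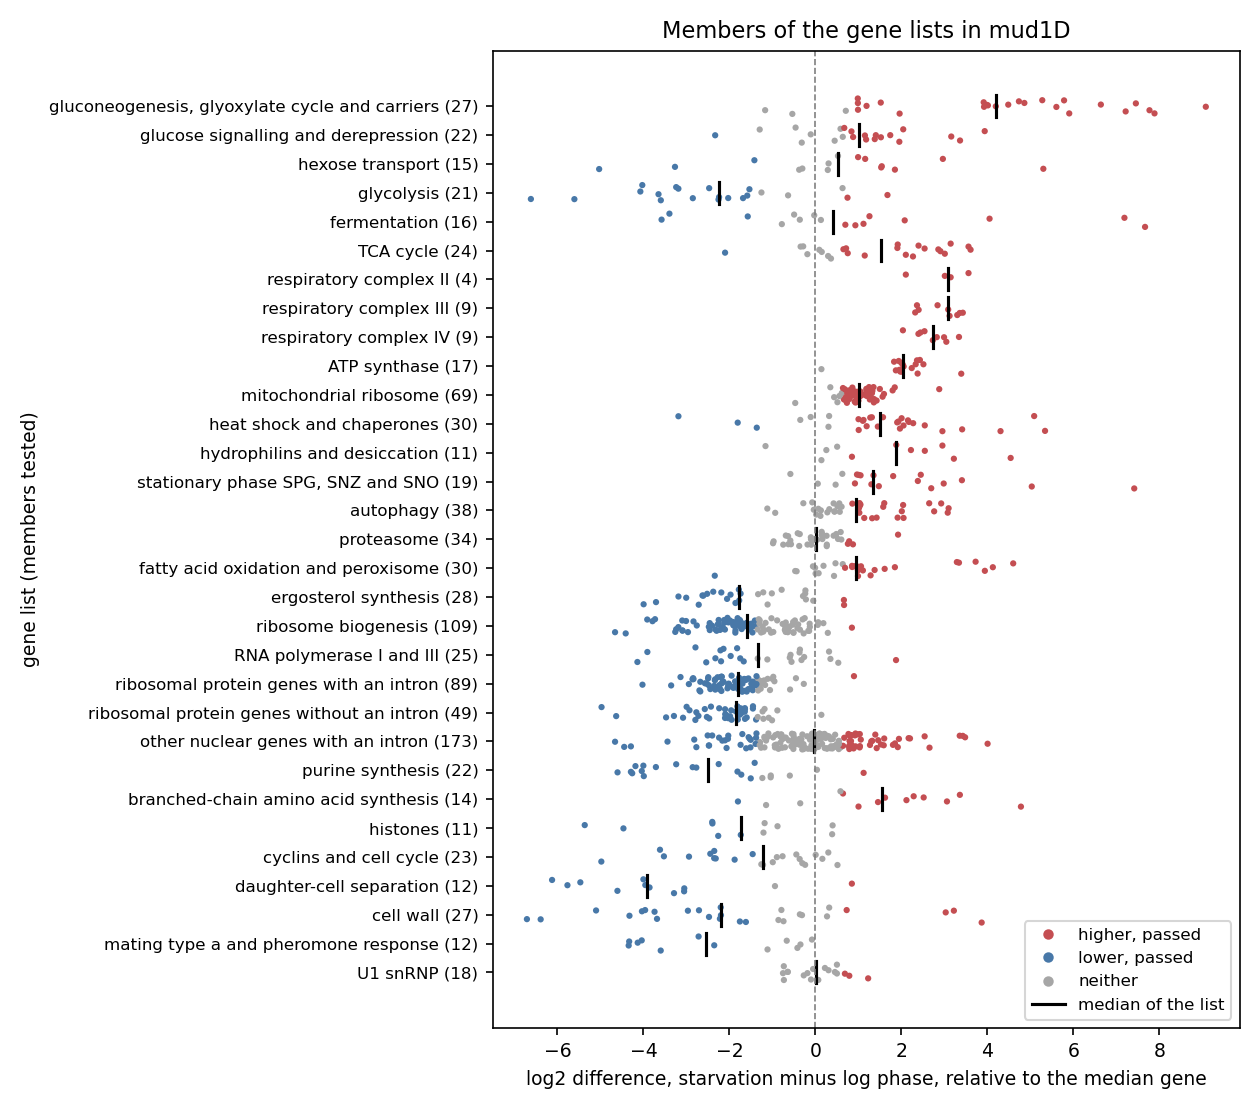
Log2 difference between starvation and log phase in mud1D, relative to the median gene, for each tested member of 31 gene lists. Red points rose, blue points fell, grey points did neither, and the black bar is the median of the list, from 4.20 for gluconeogenesis to -3.91 for daughter-cell separation.

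The targeted gene was checked in every library. MUD1 (YBR119W) was listed at 2.37, 4.74 and 1.61 TPM in the log-phase mud1D libraries and at 3.46, 3.45 and 3.82 TPM in the starved ones, where WT had means of 38.1 and 69.2 TPM. All 6 mud1D values lay far below those of WT in both states, and the 2 mud1D groups overlapped. NAM8, another protein of the U1 snRNP, was at 34.4, 31.3 and 26.9 TPM in log phase and, starved, at 68.2, 54.9 and 43.7 TPM, a difference of 0.81 ± 0.17 that passed the adjusted threshold below the size called. HSH49, of the U2 snRNP, differed by 0.65 ± 0.089 and was likewise not called.

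Of 18 genes of the U1 snRNP and its Sm ring, 3 rose and none fell, against 28.2% and 14.9% of all genes, with 1 rise after centring and no rise and 5 falls with spike-in scaling, and the median of the list was 0.0078 relative to the median gene. SNU71, a U1 snRNP protein needed for splicing, went from 35.4, 36.7 and 35.0 TPM to 102, 114 and 112 TPM (1.59 ± 0.091, limma adjusted p = 1.82e-12), a call that ended with spike-in scaling (0.72). The other rises, SMD2 of the Sm ring (1.15) and SNP1, the U1-70K protein (1.05), lost their calls after centring (0.81 and 0.70) and with spike-in scaling, and SNP1 also without log-phase library 1. YHC1, the U1-C protein, differed by 0.43 and LUC7 by 0.58, both under the size called. Among 13 genes of the U2 snRNP 4 rose, led by CUS1 from 19.8, 21.2 and 21.4 TPM to 56.2, 61.9 and 60.1 TPM (1.47 ± 0.10), and after centring 2 did and with spike-in scaling none. Of 51 other spliceosome genes 19 rose and 2 fell, which became 8 and 4 after centring and 2 and 6 with spike-in scaling. ECM2, which acts in the active spliceosome, rose from 14.1, 15.99 and 17.0 TPM to 57.7, 64.3 and 62.1 TPM (1.91 ± 0.10). The falls were those of PRP43, a helicase of spliceosome release that also serves ribosome biogenesis, from 79.7, 87.3 and 99.2 TPM to 8.65, 9.48 and 11.6 TPM (-3.04 ± 0.11), and of SAD1 (-2.12 ± 0.083).

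The 3 starved mud1D libraries did not stand equally far from log phase. Of 5077 genes that averaged 10 TPM or more there, 170 (3.35%) ranged over at least 1 on the log2 scale between the highest and the lowest library, against 22 in mud1D log phase, 8 in WT starvation, 36 in nam8D starvation and 269 in hsh49::Q24P starvation. Of the 170, 154 were highest in library 1 and lowest in library 3, and 15 the other way round. That range with the order from library 1 to library 3 was not shared by all rising genes. It was found in 17 of 27 genes of gluconeogenesis and the glyoxylate cycle, 5 of 29 of fatty acid oxidation and 5 of 19 amino acid permeases, against 154 of 5077 in all. Other lists held it too, such as 5 of 19 stationary-phase genes, 4 of 13 of the pentose phosphate pathway and 2 of 8 of NADH dehydrogenases and cytochrome c. Among genes of respiratory complexes II, III and IV and of ATP synthase none reached that range, so their order was not counted. Relative to the median gene, the median of the gluconeogenesis list was 5.14, 4.41 and 3.83 in libraries 1, 2 and 3, and that of complex IV 2.64, 2.71 and 2.78. Ribosome biogenesis genes stood at -1.96, -1.54 and -1.29 in the same libraries. In the comparison with log phase, leaving out any of these 3 libraries moved no list's count of rises or falls by both over 1.5 times and more than 1 gene. Counts without each of them are given below for some lists and where they move a comparison between genotypes. Their order was seen in the data, carries no test, and its cause was not tested.

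**Figure D3:**
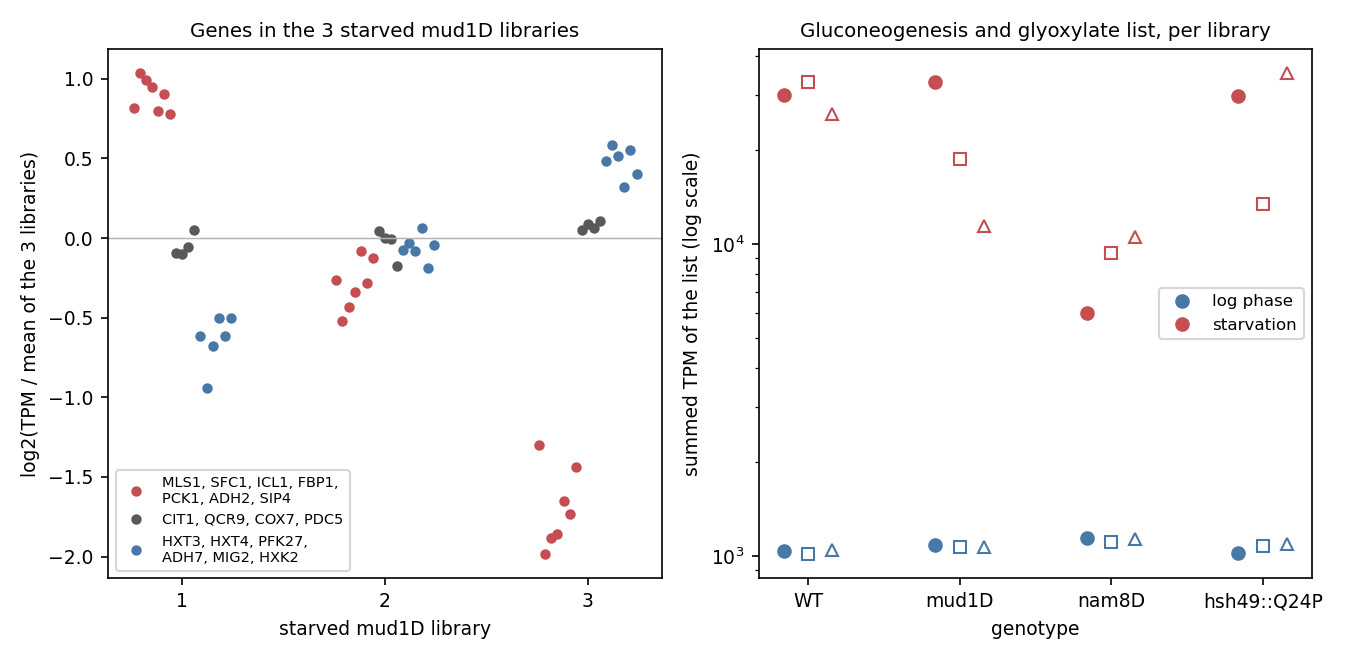
Left, TPM of single genes in the 3 starved mud1D libraries, as log2 of the TPM over the mean of the 3. Genes of the glyoxylate cycle and gluconeogenesis, ADH2 and SIP4 (red) are highest in library 1 and lowest in library 3, glucose-related genes such as HXT3 and HXK2 (blue) the reverse, and CIT1, QCR9, COX7 and PDC5 (grey) stay close to 0. Right, summed TPM of the 27 genes of gluconeogenesis, the glyoxylate cycle and carriers in every library (log axis). Circles, squares and triangles are libraries 1, 2 and 3, and the starved mud1D libraries run from 33058 to 11407 TPM.

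Genes that feed non-fermentable carbon into sugar synthesis rose in mud1D. Of 27 tested genes of gluconeogenesis, the glyoxylate cycle and its carriers 24 rose and none fell, with a median of 4.20 relative to the median gene, and 24 and 20 rose after centring and with spike-in scaling. Their summed TPM was 1089, 1070 and 1066 in log phase and 33058, 18699 and 11407 in starvation. PCK1, which starts gluconeogenesis from oxaloacetate, went from 7.24, 8.13 and 6.69 TPM to 419, 229 and 77.1 TPM (4.56 ± 0.52, limma adjusted p = 8.59e-08). FBP1, the fructose bisphosphatase, went from 1.30, 0.897 and 0.939 TPM to 399.6, 164 and 57.2 TPM (6.27 ± 0.59). For both genes every starved library was above every log-phase library, the first by the most and the third by the least. The isocitrate lyase ICL1 went from 22.0, 21.7 and 23.1 TPM to 4447, 1656 and 605 TPM (6.14 ± 0.56), and the malate synthase MLS1 from 1.67, 1.35 and 1.33 TPM to 1556, 736 and 358 TPM (8.25 ± 0.43). These are the 2 enzymes of the glyoxylate bypass, and each was over 100 TPM in every starved library.

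The carriers moved with the enzymes. SFC1, which exchanges succinate for fumarate across the mitochondrial inner membrane, went from 0.3502, 0.632 and 0.529 TPM to 1205, 411 and 149 TPM (8.13 ± 0.60). The acetate transporter ADY2 went from 2.15, 1.77 and 1.41 TPM to 1645, 655 and 221 TPM (7.82 ± 0.62), and the carnitine carrier CRC1 from 2.86, 2.58 and 2.74 TPM to 1100.1, 429.7 and 228 TPM (7.001 ± 0.43). The cytosolic acetyl-CoA synthetase ACS1 went from 6.397, 6.99 and 6.64 TPM to 322, 155 and 74.8 TPM (4.35 ± 0.42). In all 4 genes the first starved library was at least 4 times the third, while every starved library was above every log-phase library. Without starved library 1, 2 or 3 the number of rises in the list was 23, 24 and 25. The 3 members not called were the malic enzyme MAE1, the lactate dehydrogenase DLD2 and the transporter ATO3.

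The stretch of the SFC1 promoter farthest from the gene is shown because SFC1 has the widest range among the starved libraries in the list and holds the stress response element CCCCT (capitals), searched on both strands in the 250 bases before each start codon. Shown are bases 250 to 121 before the start codon, from RefSeq R64 (chrX:609523-609652, plus strand).
SFC1: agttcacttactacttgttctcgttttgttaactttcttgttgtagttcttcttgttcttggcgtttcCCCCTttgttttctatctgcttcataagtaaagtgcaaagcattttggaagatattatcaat
The element was in 9 of 27 promoters of the list (33.3%), in 1128 of 6007 promoters read in all (18.8%), and in 58 of the 154 genes highest in library 1 (37.7%). A match is a description of the letters and not a site of binding.

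Among 22 genes of glucose signalling and derepression 14 rose and 1 fell, with 11 and 7 rises after centring and with spike-in scaling. Activators of non-fermentable carbon genes rose. CAT8 went from 9.99, 8.85 and 6.14 TPM to 139.6, 103 and 78.5 TPM (3.52 ± 0.20), its partner SIP4 from 1.83, 1.72 and 1.48 TPM to 105, 56.5 and 22.7 TPM (4.30 ± 0.44), and ADR1 from 20.7, 20.5 and 15.0 TPM to 314, 267 and 203 TPM (3.72 ± 0.21). HAP4, the activating subunit of the Hap complex that drives respiratory genes, went from 187, 184 and 145 TPM to 515, 794 and 974 TPM (2.10 ± 0.29). HAP4 was highest in the third starved library, where CAT8, SIP4 and ADR1 were lowest. HXK2, the hexokinase of glucose-grown cells and the member that fell, went from 1201, 1165 and 1136 TPM to 216, 298 and 405 TPM (-1.97 ± 0.20). The repressor MIG1 differed by 1.20 ± 0.11, called as a rise, but its call ended after centring (0.86) and with spike-in scaling. MIG2, a related repressor, went from 155, 151 and 119 TPM to 50.5, 67.9 and 114 TPM, short of the size called, but past it after centring (-1.28) and with spike-in scaling (-1.81).

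Hexose transporters differed in direction. Of 15 genes 7 rose and 3 fell, and with spike-in scaling 5 rose and 3 fell. HXT1, the low-affinity transporter of high glucose, went from 369, 323 and 294 TPM to 10.2, 12.2 and 13.4 TPM (-4.67 ± 0.24), and HXT2 from 2014, 1841 and 1355 TPM to 204, 245 and 235 TPM (-2.91 ± 0.29). HXT5, a transporter of slow growth, went from 9.55, 7.51 and 3.74 TPM to 722, 413 and 184 TPM (5.66 ± 0.42). HXT3 and HXT4 were also abundant in starved mud1D: HXT3 was at 2506, 2164 and 1994 TPM in log phase and, starved, at 1574, 2287 and 3375 TPM, with overlapping groups, and HXT4 went from 626, 528 and 392 TPM to 825, 1553 and 2384 TPM (1.52 ± 0.36), a rise not called with spike-in scaling. The high-affinity transporters HXT6 (5532, 7445 and 8598 TPM in starvation) and HXT7 (6263, 5526 and 5499.6 TPM) were among the most abundant RNAs of starved mud1D cells. They are near-identical copies, so the split of reads between them is uncertain.

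Of 21 genes of glycolysis 16 fell and 2 rose, and after centring 17 fell. The median was -2.25 relative to the median gene. The aldolase FBA1 went from 15267, 15745 and 15489 TPM to 1674, 1562 and 1696 TPM (-3.24 ± 0.086, limma adjusted p = 1.48e-17). PGK1, the phosphoglycerate kinase, went from 5845, 5834 and 5887 TPM to 566, 582 and 647 TPM (-3.29 ± 0.087). The pyruvate kinase CDC19 went from 6136, 6328 and 6614 TPM to 962, 818 and 908 TPM (-2.83 ± 0.094). Each lay in a narrow band within each state. Enolase and glyceraldehyde phosphate dehydrogenase are encoded by near-identical copies whose reads may be split: ENO2 stood at -6.26 and ENO1 at -1.67, and TDH2 and TDH3 at -5.25 and -3.71. TDH1, at -0.90, was not called, but was so as a fall after centring and with spike-in scaling. The rises were those of the regulatory kinases PFK26, from 25.0, 22.2 and 20.8 TPM to 119.7, 93.0 and 78.8 TPM (2.04 ± 0.13), and PFK27 (1.11 ± 0.29), whose call ended without starved library 3, after centring (0.76) and with spike-in scaling.

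Among 16 fermentation genes 8 rose and 3 fell, but with spike-in scaling 4 rose and 5 fell. PDC5, a pyruvate decarboxylase that is little used in log phase, went from 6.98, 7.57 and 9.32 TPM to 2419.7, 2065 and 2514 TPM (8.03 ± 0.14, limma adjusted p = 5.88e-20). The main decarboxylase PDC1 was at 4456, 4533 and 4662 TPM in log phase and, starved, at 4520.3, 3659 and 4292 TPM (-0.14 ± 0.12), and the groups overlapped, though it was called as a fall with spike-in scaling (-1.02). PDC6 went from 5.25, 5.47 and 6.19 TPM to 21.4, 18.5 and 18.2 TPM (1.62 ± 0.19), a rise that ended with spike-in scaling (0.82). PDC1 and PDC5 are alike in sequence, so part of the reads may be assigned to either. ADH1, which makes ethanol, went from 15107, 15203 and 15452 TPM to 1753, 1498 and 1668 TPM (-3.22 ± 0.099), while ADH7, an alcohol dehydrogenase of branched and aromatic alcohols, went from 2.50, 2.59 and 2.09 TPM to 459, 680.1 and 812 TPM (7.55 ± 0.29). ADH2, which uses up ethanol, went from 2.47, 1.80 and 2.48 TPM to 163, 71.7 and 26.2 TPM (4.41 ± 0.47), highest in starved library 1, where ADH7 was lowest. The acetaldehyde dehydrogenase ALD4 was at 451, 407 and 336 TPM in log phase and, starved, at 898, 389.7 and 175 TPM, and the cytosolic ALD6 at 519, 516 and 502 TPM and 1036, 408 and 131 TPM. Neither was called, and both ranged widely among the starved libraries, but ALD6 was called as a fall with spike-in scaling (-1.30). In the pentose phosphate pathway 5 of 13 genes rose and 5 fell, and with spike-in scaling 3 and 6 did: NQM1, a transaldolase copy, rose from 27.3, 24.8 and 20.2 TPM to 876, 817 and 719 TPM (5.01 ± 0.12), and the phosphogluconate dehydrogenase GND1 fell from 749, 742 and 801 TPM to 71.2, 81.4 and 101 TPM (-3.18 ± 0.13).

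**Figure D4:**
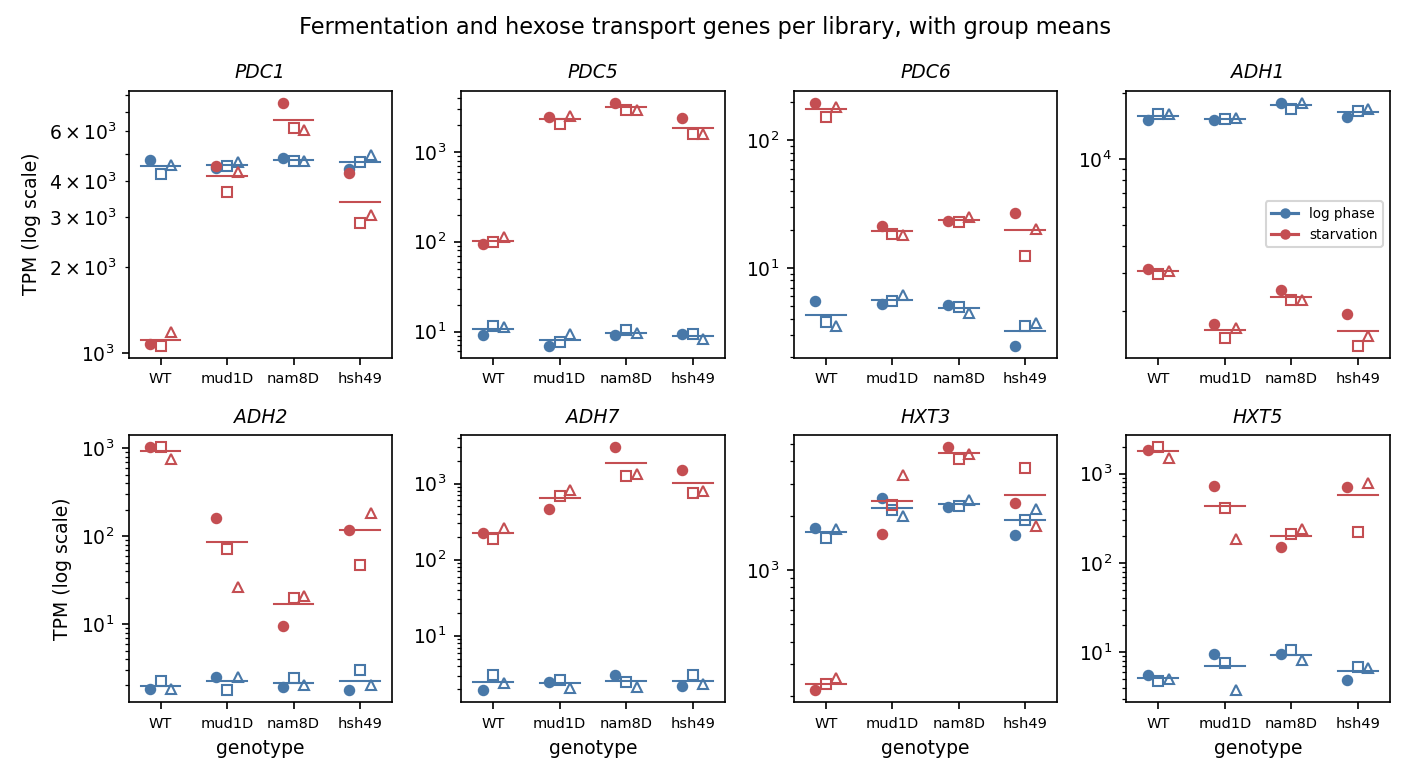
TPM in every library of the 4 genotypes (log axis) for PDC1, PDC5, PDC6, ADH1, ADH2, ADH7, HXT3 and HXT5. Blue is log phase and red starvation, circles, squares and triangles are libraries 1, 2 and 3, and lines are group means. Starved mud1D libraries lie above starved WT libraries for PDC5 and HXT3 and below them for PDC6 and ADH2.

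Nuclear genes of the respiratory chain rose in mud1D almost without exception. All 4 genes of complex II, all 9 of complex III, all 9 of complex IV, 16 of 17 of ATP synthase and all 8 NADH dehydrogenase and cytochrome c genes rose, and after centring and with spike-in scaling these counts were the same, except for 7 of 8 in the last list with spike-in scaling. The medians relative to the median gene were 3.08, 3.09, 2.73, 2.03 and 2.05. SDH2, the iron-sulfur subunit of complex II, went from 124, 122 and 94.2 TPM to 1790.0, 1706 and 1672 TPM (3.92 ± 0.10). QCR9 of complex III went from 128, 121 and 103 TPM to 1526, 1636 and 1741 TPM (3.79 ± 0.11, limma adjusted p = 4.07e-17), and COX7 of complex IV from 156, 151 and 131 TPM to 1833, 1895 and 1991 TPM (3.70 ± 0.096). The starved libraries differed little for these subunits, unlike for the glyoxylate enzymes. ATP1, the alpha subunit of ATP synthase, rose by less, from 243, 239 and 243 TPM to 1161, 1098 and 1161 TPM (2.23 ± 0.075). Among electron carriers, NDE2, an NADH dehydrogenase on the outer face of the inner membrane, went from 3.06, 3.29 and 2.63 TPM to 276, 111 and 59.9 TPM (4.95 ± 0.43), and CYC1, the main cytochrome c, from 33.6, 35.5 and 39.4 TPM to 627, 659.5 and 664 TPM (4.13 ± 0.099). NDE2 shared the wide range of the gluconeogenesis genes, and CYC1 did not.

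The QCR9 promoter is shown as an example from the respiratory chain with the core of the Hap complex element, CCAAT (capitals), over bases 250 to 121 before the start codon in RefSeq R64 (chrVII:859597-859726, minus strand).
QCR9: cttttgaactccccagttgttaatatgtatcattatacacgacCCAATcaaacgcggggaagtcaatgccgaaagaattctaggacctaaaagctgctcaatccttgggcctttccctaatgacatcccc
On either strand within 250 bases, CCAAT was in 4 of 4 promoters of complex II, 7 of 9 of complex III (77.8%), 7 of 9 of complex IV (77.8%) and 15 of 17 of ATP synthase (88.2%), against 2126 of 6007 in all (35.4%). It was in 577 of 1613 promoters of genes that rose (35.8%) and in 346 of 886 of genes that fell (39.1%).

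In the TCA cycle 16 of 24 genes rose and 1 fell. The mitochondrial citrate synthase CIT1 went from 309.6, 304 and 217 TPM to 2389.7, 2632 and 2644 TPM (3.22 ± 0.21), and KGD1 of the ketoglutarate dehydrogenase from 48.9, 47.6 and 43.2 TPM to 523, 458 and 397 TPM (3.27 ± 0.11). Of 69 genes of the mitochondrial ribosome 63 rose and none fell, but 37 did after centring and 5 with spike-in scaling and the list median stood 1.01 above the median gene. RSM22 led it, from 12.6, 13.7 and 16.9 TPM to 132, 151 and 148 TPM (3.24 ± 0.088). Of 9 rows of the mitochondrial genome 7 rose, 4 after centring and 2 with spike-in scaling. All but OLI1 were low in these poly(A)-selected libraries, and OLI1, a subunit of ATP synthase, went from 12.4, 13.1 and 7.06 TPM to 79.6, 59.1 and 50.3 TPM. Among 22 genes of hypoxic isoforms and their aerobic partners 8 rose and 3 fell, but 4 and 4 after centring and 3 and 6 with spike-in scaling. The hypoxic cytochrome c CYC7 went from 145, 118 and 75.6 TPM to 1118, 1180.0 and 1222 TPM (3.42 ± 0.22), the fatty acid desaturase OLE1 fell from 564, 516 and 556 TPM to 159, 134 and 112 TPM (-2.02 ± 0.18), and the cell wall gene TIR1, induced without oxygen, stayed near 1 TPM in all 6 libraries.

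Of 30 heat shock and chaperone genes 23 rose and 3 fell, and with spike-in scaling 15 rose and 3 fell. The small chaperone HSP26 went from 73.1, 76.3 and 48.01 TPM to 1583, 1648 and 1759 TPM (4.67 ± 0.18, limma adjusted p = 4.96e-15), with the 3 starved libraries close together. HSP12, a membrane-stabilising hydrophilin, went from 287, 235 and 227 TPM to 4087, 2409.8 and 1547 TPM (3.31 ± 0.40), highest in library 1. HSP82, the inducible Hsp90, went from 194, 250.2 and 126 TPM to 1094, 1407 and 1690.5 TPM (2.90 ± 0.28). The falls were the ribosome-bound chaperones SSB1 (-2.83) and SSB2 (-1.45) and the constitutive SSA2 (-1.01), all near-identical to a copy. The call of SSA2 ended without log-phase library 2 or 3 or starved library 1 or 2, and after rescaling to coding genes (-0.98). Of 11 hydrophilin genes 7 rose and none fell, among them SIP18, from 7.21, 5.75 and 5.57 TPM to 291, 215 and 153 TPM (4.90 ± 0.24), and GRE1, from 3.22, 2.50 and 2.79 TPM to 28.8, 15.4 and 11.1 TPM (2.24 ± 0.28).

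HSP12 is shown as a strong stress gene with 2 copies of the element CCCCT (capitals) in bases 250 to 121 before its start codon, from RefSeq R64 (chrVI:107006-107135, plus strand).
HSP12: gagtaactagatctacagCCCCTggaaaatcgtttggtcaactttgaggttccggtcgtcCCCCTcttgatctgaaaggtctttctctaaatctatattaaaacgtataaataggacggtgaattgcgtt
The element was in 12 of 30 heat shock promoters (40.0%) and in 6 of 11 hydrophilin promoters (54.5%), against 18.8% of all. It was in 399 of 1613 promoters of genes that rose (24.7%) and in 121 of 886 of genes that fell (13.7%).

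In the trehalose list 3 of 10 genes rose and 1 fell, shares near the 28.2% and 14.9% of all genes, and in the glycogen list 6 of 12 rose and 3 fell. With spike-in scaling the trehalose list had 2 rises and 4 falls and the glycogen list 3 and 4. The trehalose synthase TPS1 was at 577, 540.1 and 426 TPM in log phase and, starved, at 843, 716 and 607 TPM (0.49 ± 0.15), not called, while the trehalase ATH1 went from 9.55, 9.58 and 8.0004 TPM to 73.8, 49.8 and 35.0 TPM (2.36 ± 0.23). Glycogen phosphorylase GPH1 fell from 312, 274 and 198 TPM to 160.5, 96.2 and 70.2 TPM (-1.31 ± 0.33), and GIP2, which targets a phosphatase to glycogen synthase, rose from 18.4, 14.8 and 13.4 TPM to 149.7, 133 and 121 TPM (3.04 ± 0.16). Among 19 stationary-phase genes 15 rose and none fell, and with spike-in scaling 8 rose and 1 fell. SPG4, needed for survival at high temperature in stationary phase, went from 14.3, 16.5 and 11.02 TPM to 3977, 3351 and 2545 TPM (7.78 ± 0.18), and SPG1 from 12.99, 9.80 and 6.84 TPM to 320.5, 132 and 69.0 TPM (3.77 ± 0.51). Of 24 antioxidant genes 13 rose and 4 fell, but 8 and 4 after centring and 4 and 5 with spike-in scaling. The peroxisomal catalase CTA1 rose from 2.45, 2.85 and 4.09 TPM to 122, 51.8 and 19.5 TPM (3.65 ± 0.50), and the thioredoxin TRX1 fell from 654, 644 and 617 TPM to 76.3, 61.6 and 58.7 TPM (-3.27 ± 0.091).

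Of 38 autophagy genes 20 rose and none fell, and 19 rose after centring and 11 with spike-in scaling. ATG8, the protein that coats the growing autophagosome, went from 154, 134 and 104 TPM to 746, 673 and 641 TPM (2.40 ± 0.12), and ATG39, a receptor for autophagy of the nucleus, from 21.8, 19.4 and 17.7 TPM to 251, 225 and 202 TPM (3.46 ± 0.093). In the proteasome list 4 of 34 genes rose and none fell, with 1 rise after centring and 1 rise and 8 falls with spike-in scaling, and the list median was 0.010 relative to the median gene. RPN4, the activator of proteasome genes, was one of them and went from 54.3, 57.2 and 49.7 TPM to 280.2, 256 and 259 TPM (2.28 ± 0.069), while the element GGTGGC that it binds was in 30 of 34 proteasome promoters (88.2%) and in 331 of all 6007 (5.51%). Of 30 genes of fatty acid oxidation and peroxisomes 19 rose and 1 fell, and with spike-in scaling 8 rose and 1 fell. The acyl-CoA oxidase POX1 went from 1.06, 1.09 and 0.970 TPM to 75.3, 35.9 and 22.1 TPM (4.30 ± 0.35), the thiolase POT1 from 0.595, 0.846 and 0.784 TPM to 80.7, 35.0 and 19.2 TPM (4.49 ± 0.37), and the dienoyl-CoA reductase SPS19 from 6.56, 6.22 and 5.35 TPM to 239, 225 and 192 TPM (4.96 ± 0.11). POX1 and POT1 were highest in starved library 1, and the peroxisomal adenine nucleotide carrier ANT1 was the member that fell (-1.98 ± 0.14).

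Of 28 ergosterol genes, which make the main sterol of yeast membranes, 16 fell and 2 rose, and after centring 19 fell and none rose. ERG3 went from 312, 296 and 335 TPM to 41.0, 41.8 and 47.4 TPM (-2.83 ± 0.083, limma adjusted p = 7.78e-17), ERG6 from 379, 382 and 430.3 TPM to 30.8, 29.9 and 32.2 TPM (-3.64 ± 0.073), and the squalene epoxidase ERG1 from 153, 169 and 208 TPM to 37.4, 37.1 and 40.9 TPM (-2.16 ± 0.13). The groups were far apart and the starved libraries alike. The rises, those of the reductase HMG2 (1.03) and of the sterol regulator UPC2 (1.02), ended after centring and with spike-in scaling. The call of HMG2 also ended without starved library 1 and that of UPC2 without starved library 3. The Upc2 element TCGTATA was in 3 of 28 ergosterol promoters (10.7%) and in 229 of 6007 in all (3.81%). In fatty acid, inositol and phospholipid synthesis 6 of 21 fell and 2 rose, and with spike-in scaling 14 fell and 1 rose. Among those called were the fatty acid synthase FAS1, from 173, 185 and 201 TPM to 53.1, 38.3 and 36.2 TPM (-2.12 ± 0.15), and INO1, the inositol phosphate synthase, which rose from 35.1, 42.1 and 44.9 TPM to 767, 578 and 495 TPM (3.86 ± 0.22).

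Genes that build ribosomes fell. Of 109 ribosome biogenesis genes 66 fell and 1 rose, with 78 falls after centring and 91 with spike-in scaling, and the median was -1.60 relative to the median gene. DBP2, an RNA helicase, went from 334, 343 and 443 TPM to 12.8, 17.5 and 25.1 TPM (-4.30 ± 0.22, limma adjusted p = 2.21e-13), and the nucleolar protein NSR1 from 397, 400.2 and 555 TPM to 19.7, 38.1 and 66.7 TPM (-3.55 ± 0.29). RRP1, which processes ribosomal RNA, went from 109, 111 and 122.6 TPM to 5.57, 5.69 and 6.54 TPM (-4.05 ± 0.12). In DBP2 and NSR1 the first starved library was the lowest and the third the highest, all far below log phase. The list had 62, 67 and 71 falls without starved library 1, 2 and 3. SFP1, an activator of this class of genes, was the one called as a rise (1.21), a call that ended after centring (0.87) and with spike-in scaling. Of 25 genes of RNA polymerases I and III 12 fell and 1 rose, with 17 falls and 1 rise under spike-in scaling: RPA43 of polymerase I went from 106, 115 and 129 TPM to 5.81, 7.41 and 9.78 TPM (-3.78 ± 0.18), while RRN3, the initiation factor of polymerase I, rose from 7.44, 8.50 and 15.1 TPM to 51.4, 52.8 and 46.9 TPM (2.24 ± 0.19).

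The DBP2 promoter is shown because DBP2 fell most in the list and carries the 2 elements known from ribosome biogenesis genes, PAC (GATGAG, here read as its reverse complement) and the RRPE core (AAATTTT), both in capitals where they lie in bases 250 to 121 before the start codon in RefSeq R64 (chrXIV:413389-413518, plus strand).
DBP2: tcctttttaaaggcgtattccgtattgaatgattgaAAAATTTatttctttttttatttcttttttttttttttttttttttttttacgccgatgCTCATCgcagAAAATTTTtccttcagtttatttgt
PAC was in 96 of 109 promoters of the list (88.1%) and in 1022 of 6007 in all (17.0%), and the RRPE core in 103 of 109 (94.5%) and in 1302 of 6007 (21.7%), searched on both strands over 250 bases. Promoters of RNA polymerase I and III genes held PAC in 17 of 25 cases (68.0%) and the RRPE core in 20 of 25 (80.0%).

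Ribosomal protein genes fell in 71 of 89 cases and rose in 1 where they carry an intron. Where none was counted, 41 of 49 fell and no gene rose, with medians of -1.79 and -1.85 relative to the median gene. An intron was counted only as a gap of at least 20 bases between coding parts. A gene whose only intron lies before the start codon is therefore among those without one. Ribosomal protein RNA was 28.5%, 28.3% and 29.1% of all TPM in log phase and 8.61%, 10.3% and 11.8% in starvation. RPL22A, which has an intron, went from 2048, 2030.4 and 2033 TPM to 129.8, 166 and 189 TPM (-3.66 ± 0.14), and RPL9A, which has none, from 2125, 2168 and 2149 TPM to 89.4, 89.8 and 80.8 TPM (-4.62 ± 0.16). Each has a closely similar copy elsewhere in the genome, so the split of reads between copies is uncertain. RPS14B, with an intron, went from 177, 171 and 186 TPM to 371, 428 and 491 TPM (1.26 ± 0.10), a rise that ended after centring (0.91) and with spike-in scaling (0.38). Without starved library 1, 2 or 3 the intron-containing list had 62, 72 and 77 falls. Of 37 translation factors 12 fell and 2 rose, but with spike-in scaling 30 fell and 1 rose. TEF4, a subunit of elongation factor 1, went from 665, 697 and 804 TPM to 37.2, 40.3 and 47.2 TPM (-4.09 ± 0.12), and HEF3, a copy of elongation factor 3 that is low in log phase, rose from 4.78, 4.53 and 5.06 TPM to 106, 72.7 and 54.7 TPM (3.72 ± 0.18).

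Amino acid pathways differed in direction. Of 14 genes of branched-chain amino acid synthesis and transport 10 rose and 1 fell, and with spike-in scaling 7 and 2. LEU1, the second enzyme of leucine synthesis, went from 122, 139 and 138 TPM to 4051, 4659.8 and 5603 TPM (5.14 ± 0.14, limma adjusted p = 2.41e-17), and BAP2, a permease of branched-chain amino acids, from 118, 98.8 and 81.5 TPM to 1454, 1250.1 and 1238 TPM (3.72 ± 0.15). LEU2 itself stood at 3.25, 5.83 and 4.67 TPM in starvation. In the methionine and sulfur list 11 of 33 rose and 6 fell, near the 28.2% and 14.9% of all genes. The counts were 7 and 8 after centring and 6 and 15 with spike-in scaling. MET2 rose from 45.9, 56.8 and 55.5 TPM to 285, 241 and 288 TPM (2.34 ± 0.11) and MET3, the ATP sulfurylase, fell from 255, 296 and 364 TPM to 45.9, 46.9 and 57.7 TPM (-2.57 ± 0.16). Of 20 permeases 11 rose and 2 fell, but 9 and 4 after centring and 6 and 5 with spike-in scaling. GAP1, the general amino acid permease, fell from 678, 753 and 1083 TPM to 171, 110.5 and 53.3 TPM (-3.02 ± 0.39), lowest in library 3, and PUT4, the proline permease, rose from 9.51, 10.8 and 13.3 TPM to 301, 110.2 and 41.6 TPM (3.22 ± 0.60), highest in library 1.

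Genes under nitrogen catabolite repression were split, 9 of 34 higher and 12 lower, and with spike-in scaling 4 and 17. DAL80, a repressor of that regulon, went from 90.5, 103 and 116 TPM to 11.6, 11.2 and 12.04 TPM (-3.04 ± 0.13), and the urea amidolyase DUR1,2 from 157, 191 and 252 TPM to 16.4, 19.1 and 14.8 TPM (-3.48 ± 0.14). The glutamate dehydrogenase GDH3 rose from 10.2, 8.58 and 7.93 TPM to 460.3, 389 and 327 TPM (5.30 ± 0.13), whereas GDH1 was at 773, 757 and 899 TPM in log phase and, starved, at 816, 849 and 888 TPM, with overlapping groups. In the Ehrlich pathway, which turns amino acids into fusel alcohols, 9 of 13 rose and 2 fell (4 and 2 with spike-in scaling), and the decarboxylase ARO10 went from 0.285, 0.400 and 0.279 TPM to 62.6, 58.6 and 67.2 TPM (5.59 ± 0.20). Purine synthesis fell in 16 of 22 genes and rose in 1, with a median of -2.51 relative to the median gene. ADE17 went from 617, 671 and 802 TPM to 36.6, 38.3 and 32.2 TPM (-4.24 ± 0.25), and ADE13 from 869, 909 and 966 TPM to 90.5, 89.0 and 86.3 TPM (-3.35 ± 0.11). The member that rose was BAS1, an activator of the pathway (1.48 ± 0.11), which with spike-in scaling stood at 0.63 and was not called.

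Of 34 genes of the iron regulon 16 rose and 5 fell, but 11 and 6 after centring and 5 and 7 with spike-in scaling. FET3, the oxidase of high-affinity iron uptake, fell from 379, 262 and 309 TPM to 38.4, 39.8 and 30.2 TPM (-3.09 ± 0.28), as did its partner FTR1 (-2.05 ± 0.28). COT1, a vacuolar carrier of zinc and cobalt, rose from 69.1, 50.5 and 58.8 TPM to 453, 355 and 299 TPM (2.60 ± 0.17), and the iron-sulfur scaffold ISU1 from 259, 272 and 283 TPM to 1544, 1417 and 1350.1 TPM (2.40 ± 0.077). The other falls were those of the siderophore transporters ARN2 and ENB1 and of TIS11, which binds messenger RNAs of iron-dependent enzymes. In the phosphate and zinc list 4 of 21 rose and 6 fell, with 3 and 10 after centring and 2 and 11 with spike-in scaling. The zinc transporter ZRT1 went from 22.6, 24.7 and 29.4 TPM to 316, 333 and 408 TPM (3.73 ± 0.22) and the acid phosphatase PHO5 from 97.1, 119 and 107 TPM to 25.3, 18.5 and 19.6 TPM (-2.30 ± 0.16), and PHO84, the phosphate carrier, differed by 0.59 ± 0.17, under the size called.

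Of 23 cyclins and cell cycle genes 10 fell, none rose and 13 were not called, against 14.9% of all genes that fell. The G1 cyclin CLN1 went from 16.6, 17.9 and 19.5 TPM to 1.12, 1.09 and 1.12 TPM (-3.17 ± 0.12), and the mitotic cyclin CLB1 from 42.4, 46.0 and 60.8 TPM to 1.32, 1.10 and 0.733 TPM (-4.62 ± 0.18). Of 11 histone genes 6 fell and none rose, and 9 fell with spike-in scaling. HTA2 went from 1332, 1313 and 1333 TPM to 37.1, 41.0 and 42.9 TPM (-5.01 ± 0.095), but its near-identical copy HTA1 was at 2072, 1911 and 1792 TPM in log phase and, starved, at 898, 1087 and 1313 TPM (-0.82 ± 0.11), short of the size called, but past it after centring and with spike-in scaling. The split of reads between the copies is uncertain. Of 12 genes of daughter-cell separation 10 fell and 1 rose, with a median of -3.91 relative to the median gene. DSE1 went from 133, 121 and 122 TPM to 1.47, 1.29 and 1.18 TPM (-5.77 ± 0.12), the chitinase CTS1 from 511, 477 and 458 TPM to 24.4, 26.1 and 22.8 TPM (-4.25 ± 0.082), and EGT2 from 75.6, 74.2 and 83.8 TPM to 1.57, 1.24 and 1.06 TPM (-5.11 ± 0.099). The called rise, the kinase CBK1 (1.21), which acts upstream of this set, ended after centring (0.87) and with spike-in scaling. The element ACGCGT, known from G1 genes, was in 2 of 23 promoters of the cell cycle list (8.70%), in none of 11 of the histones and in 174 of all 6007 (2.90%).

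In the cell wall list 16 of 27 fell and 4 rose. The mannoprotein CWP2 went from 3466, 3831 and 3896 TPM to 154, 131 and 129.98 TPM (-4.74 ± 0.096), SRL1 from 157, 167 and 175 TPM to 2.21, 1.42 and 1.14 TPM (-6.03 ± 0.15), and CCW12 from 7784, 8194 and 7298 TPM to 1946, 1614 and 1816 TPM (-2.12 ± 0.087). Stress-related wall proteins rose: YGP1 went from 37.8, 38.6 and 25.0 TPM to 655, 624 and 638 TPM (4.23 ± 0.16), SPI1 from 196, 199.5 and 143 TPM to 2079, 2140.3 and 2191 TPM (3.58 ± 0.18), and PIR3 from 63.2, 53.5 and 40.7 TPM to 679, 484 and 509.8 TPM (3.39 ± 0.19). The libraries carried the genes of mating type a. The a-factor gene MFA1 was at 1864, 1935 and 1881 TPM in log phase and 100.1, 137 and 121 TPM when starved (-3.99 ± 0.092), and the receptor STE2 at 316, 342 and 396 TPM and 38.1, 39.8 and 31.05 TPM (-3.24 ± 0.14). The alpha-factor gene MF(ALPHA)1 was at 0.955, 1.39 and 0.687 TPM and 0.895, 1.17 and 0.970 TPM in the same order. Of 12 mating genes 7 fell and none rose.

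Genes with an intron did not move as one class. Outside the ribosome, 43 of 173 rose and 26 fell, close to the 28.2% and 14.9% of all genes, with a median of -0.037 relative to the median gene, and after centring 26 rose and 36 fell, and with spike-in scaling 15 and 59. MND1, a meiotic recombination gene, went from 4.02, 4.96 and 3.05 TPM to 79.4, 116 and 112 TPM (4.37 ± 0.20, limma adjusted p = 8.02e-14), and MIN8, a small mitochondrial protein, from 78.7, 75.0 and 71.7 TPM to 1046, 1105 and 1121 TPM (3.84 ± 0.11). QCR10 of complex III went from 121, 117 and 94.1 TPM to 1339, 1472 and 1569.7 TPM (3.72 ± 0.099), and QCR9, given above, also carries an intron. DBP2, TEF4 and the IMP dehydrogenase IMD4 (-3.93) were the largest falls outside the ribosomal protein genes. TPM per gene do not separate spliced from unspliced RNA, so splicing itself was not measured. Among 13 meiotic genes with an intron 3 rose and 2 fell, and only 2, MND1 and REC107, averaged at least 10 TPM in starvation. PCH2, a meiotic checkpoint gene, rose to 3.23, 4.92 and 4.70 TPM and HFM1, a meiotic helicase, fell to 0.375, 0.281 and 0.284 TPM, both calls that ended with a pseudocount of 5.

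The 5′ splice sites of genes that rose and fell are shown because the U1 snRNP pairs with them. Each line gives the last 10 exon bases, the first 6 bases of the intron in capitals and the next 4, from RefSeq R64.
MND1: ttcaacaatgGTATGTctaa
MIN8: gaatacagctGTATGTtaag
QCR9: gactaaaatgGTATGTtggt
QCR10: ctcaatggcgGTAAGTatcc
RPS14B: atggctaacgGTACGTgaaa
DBP2: agaggtatcgGTATGTtaaa
RPL22A: ggccccaaacGTATGAtact
They lie at chrVII:157273-157292, minus strand (MND1), chrXVI:582692-582711, minus strand (MIN8), chrVII:859464-859483, minus strand (QCR9), chrVIII:107822-107841, plus strand (QCR10), chrX:73787-73806, plus strand (RPS14B), chrXIV:414902-414921, plus strand (DBP2) and chrXII:263196-263215, plus strand (RPL22A). The consensus hexamer GTATGT began the intron in 126 of 173 genes outside the ribosome (72.8%) and in 66 of 89 ribosomal protein genes (74.2%). It did so in 29 of the 43 genes outside the ribosome that rose (67.4%), in 21 of the 26 that fell (80.8%) and in 76 of the 104 that did neither (73.1%). Counted the other way, 29 of 126 genes with GTATGT rose and 21 fell, and of 47 genes with another hexamer 14 rose and 5 fell. These are counts without a test, and both hexamer classes held genes that rose and genes that fell.

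RNAs without a poly(A) tail are read at low levels by this assay. Of 129 tRNA rows 44 rose and 19 fell, near the 28.2% and 14.9% of all genes. Of 79 snoRNA and snRNA rows 14 rose and 21 fell. With spike-in scaling these counts were 36 and 31, and 6 and 40. SNR45, a snoRNA, went from 7.93, 10.5 and 10.5 TPM to 119.7, 129 and 129 TPM (3.59 ± 0.19), SNR49 from 34.7, 31.3 and 33.1 TPM to 2.71, 4.499 and 2.35 TPM (-3.06 ± 0.27), and the U4 snRNA row SNR14 from 0.426, 0.769 and 1.61 TPM to 7.20, 7.95 and 10.9 TPM (2.35 ± 0.28). The U6 row SNR6 was at 4.89, 6.61 and 6.16 TPM in log phase and listed at 0 in all starved libraries. In families of near-identical copies near chromosome ends, whose reads may be split, 8 of 11 COS genes rose, COS1 from 59.2, 63.0 and 46.7 TPM to 198, 189.5 and 193 TPM (1.77 ± 0.080), and 4 of 7 AAD genes, AAD4 from 12.9, 10.3 and 11.8 TPM to 44.5, 38.5 and 33.1 TPM (1.64 ± 0.12). With spike-in scaling 1 of the COS genes and none of the AAD genes rose. The early meiosis regulator IME1 went from 15.8, 16.9 and 13.5 TPM to 52.4, 41.8 and 24.9 TPM (1.26 ± 0.32), a rise that ended after centring (0.91) and with spike-in scaling. Its target IME2 (-0.36 ± 0.25) was called as a fall with spike-in scaling only.

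Whether the response to starvation differed from that of WT was tested as the difference between the 2 changes, in the same model. The comparisons with WT, nam8D and hsh49::Q24P below all use the same 6 mud1D libraries, so their values are given side by side and not as independent results. Against WT, 257 genes (3.99%) rose more or fell less in mud1D and 617 (9.57%) rose less or fell more. The response of the median gene was lower than in WT, at -0.12. With spike-in scaling the counts were 84 and 1822. LEU2 and URA3 also separate these strains, so the contribution of MUD1 and of the other strain differences cannot be told apart. PDC5 had the largest difference upwards among coding genes (4.89 ± 0.20, limma adjusted p = 1.20e-12): it went from 9.24, 11.6 and 11.2 TPM to 93.2, 99.5 and 114 TPM in WT and to 2419.7, 2065 and 2514 TPM in starved mud1D. HXT3 fell in WT from 1700.4, 1505 and 1690.5 TPM to 215, 233 and 252 TPM and stood at 1574, 2287 and 3375 TPM in starved mud1D (2.86 ± 0.32), and HXT4 differed by 3.08 ± 0.51. REE1, a protein involved in the regulation of enolase, went to 269.5, 271 and 268 TPM in starved WT and to 1819, 1964 and 2055 TPM in starved mud1D (2.60 ± 0.12).

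Downwards, DPA10 reached 7506, 8404 and 6725 TPM in starved WT and 198, 112 and 53.5 TPM in starved mud1D (-6.83 ± 0.57). GRE1 reached 847, 870.3 and 602 TPM in starved WT against 28.8, 15.4 and 11.1 TPM (-5.48 ± 0.39). The pentose phosphate genes GND2 and TKL2 reached means of 207 and 299 TPM in WT against 12.6 and 16.8 TPM (-4.30 ± 0.34 and -3.90 ± 0.54). For each of these genes the starved WT libraries were all above the starved mud1D libraries. ADH2 reached 1031, 1032 and 761 TPM in starved WT (-3.88 ± 0.67), and the small chaperone HSP26 a mean of 9328 TPM against 1663 TPM (-2.702 ± 0.26).

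The list counts that follow are to be read against the 3.99% of all genes that were higher and the 9.57% that were lower than in WT. Methionine and sulfur genes were higher in 13 of 33 cases and lower in none, with MET2 at 2.13 ± 0.15 and the methionine permease MUP1 at 2.20 ± 0.22. In mitochondrial ribosome genes 9 of 69 and in branched-chain genes 5 of 14 were higher. Ergosterol genes were lower in 13 of 28 cases and higher in 1, ribosome biogenesis genes lower in 20 of 109 (13, 22 and 25 without starved mud1D library 1, 2 and 3), purine genes in 10 of 22, cell cycle genes in 9 of 23, mating genes in 7 of 12 and daughter-cell genes in 7 of 12. ERG3 is an example, at means of 151 TPM in starved WT and 43.4 TPM in starved mud1D (-2.21 ± 0.12), and CLN1 another, at 15.8 and 1.11 TPM (-3.04 ± 0.16). In the gluconeogenesis list 9 of 27 were lower, PCK1 by the most among those named (-3.85 ± 0.74), and this count was 15, 7 and 5 without starved mud1D library 1, 2 and 3. Fatty acid oxidation genes were lower in 3 of 30 cases, near the share of all genes, and in 8, 3 and 2 without those libraries. Glucose signalling genes were higher in 5 of 22 cases and lower in none, and glycolysis genes were higher in 1 of 21 and lower in 9. Intron-containing genes outside the ribosome were higher in 5 and lower in 9 of 173 cases, and no U1 snRNP gene of 18 was called in either direction. Differences from WT were also seen in the other mutants, so they are not to be read as particular to mud1D. No member of the ergosterol, purine, methionine, mating, daughter-cell or glycolysis lists was called between mud1D and hsh49::Q24P. The same held for PDC5, HXT3, HXT4, REE1, DPA10, GRE1, GND2, TKL2 and ADH2. Ergosterol medians relative to the median gene were -0.65, -0.80 and -0.68 in the starved WT libraries and -1.78, -1.80 and -1.70 in mud1D. They were -1.47, -1.76 and -1.67 in nam8D and -1.58, -1.80 and -1.62 in hsh49::Q24P. Ribosome biogenesis medians, at -1.19, -1.25 and -1.11 in WT, were not lower in nam8D (-0.87, -1.07 and -1.09). They were lower in hsh49::Q24P (-1.90, -1.51 and -2.07), as in mud1D (-1.96, -1.54 and -1.29). These medians carry no test.

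**Figure D5:**
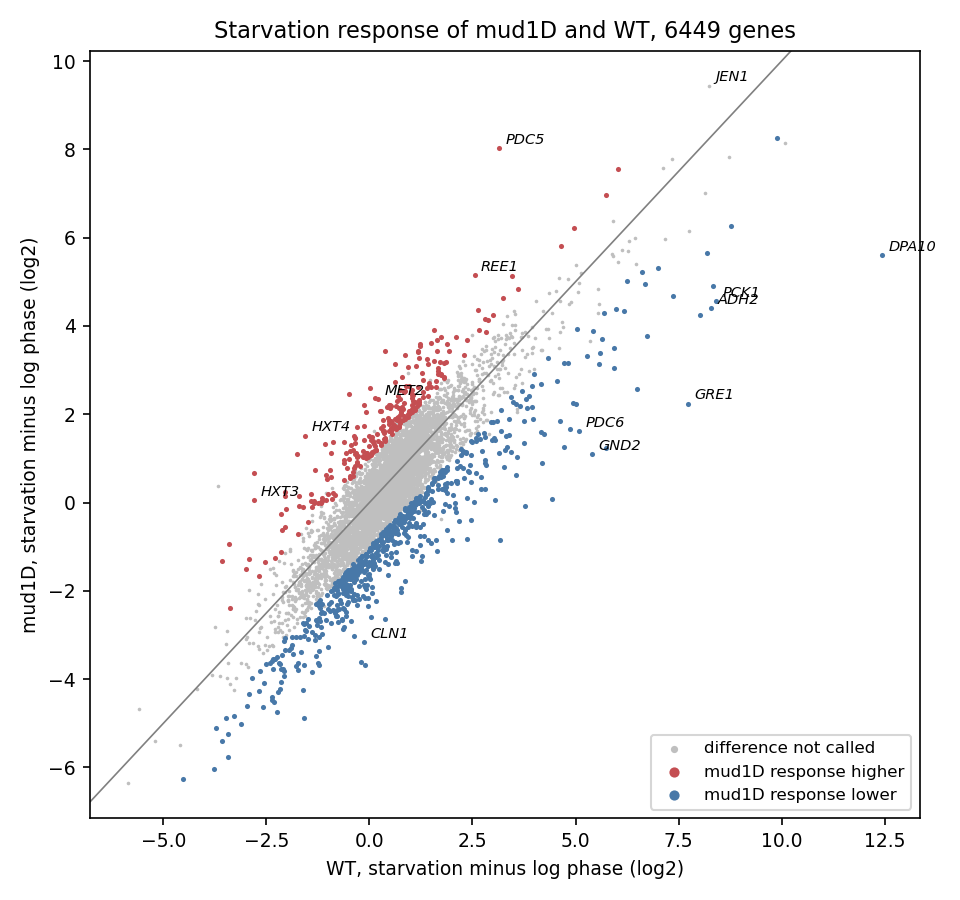
Log2 difference between starvation and log phase in mud1D (vertical) against the same in WT (horizontal), 1 point for each of the 6449 genes tested. Red marks the 257 genes whose change was higher in mud1D and blue the 617 whose change was lower, and grey the rest, and most grey points lie along the diagonal.

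Against nam8D, the other deletion of a U1 snRNP protein, 28 genes (0.434%) were higher and 53 (0.822%) lower, and 902 passed at any size. The higher ones included 7 genes of the gluconeogenesis list and the TCA cycle genes CIT1 and ACO1. Starved nam8D libraries had 75.5, 182 and 213 TPM of MLS1, against 1556, 736 and 358 TPM in mud1D (2.52 ± 0.60, limma adjusted p = 0.0124), and 28.7, 94.2 and 109 TPM of SFC1 (2.84 ± 0.84). CIT2 stood at 1293, 2074 and 2271 TPM in starved nam8D (1.54 ± 0.32) and the hydrophilin SIP18 at 34.3, 55.1 and 55.9 TPM (1.84 ± 0.35). SFC1 and the isocitrate dehydrogenase IDP2 (1.997 ± 0.64) lost their calls in 9 of the 12 fits that left out 1 library, among them those without starved mud1D library 1 or 2. The MUD1 row itself was among the lower genes (-1.04 ± 0.24). For the gluconeogenesis list, with 7 of 27 higher, the count was 3, 3 and 16 without starved mud1D library 1, 2 and 3. Among lower genes were HXT1 (-1.63 ± 0.33), ADH7 (-1.38 ± 0.40), the iron oxidase FET3 (-1.48 ± 0.39) and the ribosomal protein gene RPS22A (-1.30 ± 0.24). ADH7 lost its call in 6 of the 12 fits and FET3 in that without starved nam8D library 1. In the ribosome biogenesis list 9 of 109 were lower, but 1, 12 and 23 without the same libraries. With spike-in scaling 8 genes were higher and none lower in all, and none of the genes named here for nam8D except MLS1 and SIP18 kept its call.

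Against hsh49::Q24P, a mutant of the U2 snRNP, 4 genes (0.062%) were higher and 3 (0.0465%) lower, with 29 passing at any size and 684 at an unadjusted p under 0.05. The starved hsh49::Q24P libraries had a median gene SD of 0.19 on the log2 scale, against 0.148 in starved mud1D and 0.0883 in starved WT. INO1 rose more in mud1D, from a mean of 40.7 TPM to 613 TPM, against 100.04 and 488 TPM in hsh49::Q24P (1.60 ± 0.31). YGP1 differed by 1.27 ± 0.22. RPS22B, which has introns, went from 398, 389 and 383 TPM to 125, 160.1 and 186 TPM in mud1D and from a mean of 215 to 196 TPM in hsh49::Q24P (-1.19 ± 0.20), and SEO1 differed by -1.14 ± 0.21. LEU2 differed by 6.68 ± 0.81, with a log-phase mean of 215 ± 218 TPM (SD, n = 3) in hsh49::Q24P. The remaining calls were chosen after their values were seen: YOR161W-A, at 15.1, 21.7 and 16.9 TPM in starved mud1D (1.51 ± 0.33), and SPR2, under 1 TPM in all mud1D libraries (-1.59 ± 0.26). INO1, YGP1, RPS22B and SEO1 lost their calls when only the 4 groups compared were fitted, INO1 also in 5 of the 12 fits that left out 1 library, and SEO1 without starved hsh49::Q24P library 1. YGP1, RPS22B and SEO1 lost them with spike-in scaling as well, and SEO1 with a pseudocount of 5.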

How the data were processed

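Poly(A)-selected RNA of 24 yeast cultures was sequenced with a directional library kit, per the labels' protocols, after hot acid phenol extraction and DNase treatment. Tools named in the submitters' processing notes are STAR 2.7.9a, Trimmomatic 0.39 and FastQC 0.11.9. The genome build, annotation and counting step are not given in the sources used here. The authors deposited 1 table of TPM values, with no read counts, so depth is unknown and count models were not used. The TPM put every library on the same total, so a change in total RNA per cell is not visible in them. The table has 8009 rows besides 4 empty lines, and 888 of the rows (352 replication origins, 433 repeats, 92 spike-in RNAs and 11 ribosomal DNA spacers) were left out. Symbols and sequences came from RefSeq R64, which matched 6050 rows by name. No coordinate of the deposited table was used.

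Log2(TPM + 1) was fitted with limma 3.58.1 in R 4.3.3, with an intensity trend, as 1 linear model of 8 groups, for the 6449 rows at 1 TPM or more in at least 3 libraries. Residual degrees of freedom were 16, and with the prior 19.4. Responses of different genotypes were compared by interaction contrasts. P-values were adjusted by Benjamini and Hochberg over all 6449 rows, and a change needed an adjusted p under 0.05 and 1 on the log2 scale. On simulated data for the starvation comparison, of 50 genes per size the model called 50% of changes of log2 1, 96% of 1.5 and 100% of 2 and of 3. In this fit of 6449 genes, 1 of those left unchanged was called. The simulated noise had 1 SD per gene for all groups, whereas the median gene SD was 0.148 in starved and 0.103 in log-phase mud1D. Lists (49 written by hand, the others from the annotation) were counted without a test. Introns were gaps of at least 20 bases between coding parts, so introns outside the coding sequence were not counted. Of the list members 1 called gene, and of the promoter elements searched 1, are not reported here. The members and lists were chosen with earlier results of these data known. Named genes are the 12 largest rises and falls among coding genes of at least 10 TPM without overlap, up to 3 called members per list and direction, marked reference genes of each list, and the 8 largest interaction differences per direction. Replicate numbers were not used to pair the libraries, and whether they pair them is not settled. Deviations of same-number libraries in mud1D correlated at 0.202, 0.00113 and 0.168, and those of different numbers at -0.199 to 0.0779. Alternatives covered the pseudocount, the filter on low values, 5 other scalings, a replicate block, the groups fitted, the trend, library weights and each library left out. Plots used Python 3.11.15 with matplotlib 3.10.9.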

Additional observations from a re-analysis of the deposited data

Results flagged for a closer look

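The interaction contrasts that tested the response of mud1D against that of another genotype called 257 genes higher and 617 lower than in WT, 28 higher and 53 lower than in nam8D, and 4 higher and 3 lower than in hsh49::Q24P. All 3 contrasts share the mud1D libraries, and WT differs from mud1D in LEU2 and URA3 as well.

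Against WT the log2 differences of the named genes upwards were 4.89 for PDC5, 3.48 for YOL014W, 3.08 for HXT4, 3.05 for YOR316C-A, 2.97 for YJL213W, 2.86 for HXT3, 2.85 for PFK27 and 2.60 for REE1. Downwards they were -6.83 for DPA10, -5.48 for GRE1, -4.49 for the water channel gene AQY1, -4.34 for YDL218W, -4.30 for GND2, -4.01 for the sodium-phosphate cotransporter gene PHO89, -3.90 for TKL2 and -3.88 for ADH2. AQY1 was at 356, 363 and 190.4 TPM in starved WT and at 36.7, 12.2 and 5.36 TPM in starved mud1D, and PHO89 at 607, 582 and 765 TPM and 92.8, 52.2 and 35.5 TPM. YOL014W was at 11.1, 13.1 and 11.9 TPM in starved WT and 101, 88.7 and 98.9 TPM in starved mud1D, without overlap.

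Against nam8D they were 2.84 for SFC1, 2.52 for MLS1, 2.00 for IDP2, 1.84 for SIP18, 1.61 for ATO2, 1.55 for the cell wall gene CWP1, 1.54 for CIT2 and 1.53 for RTC3. Downwards they were -1.63 for HXT1, -1.52 for RFU1, -1.48 for FET3, -1.38 for ADH7, -1.31 for the sulfate permease gene SUL1, -1.30 for RPS22A, -1.27 for UBC11 and -1.24 for the arginine synthesis gene ARG7. Several of these calls depend on single libraries: SFC1 and IDP2 in 9 of 12 fits without 1 library, ADH7 in 6, RFU1 in 4, ATO2 and UBC11 in 3 each, and FET3 and SUL1 in the fit without starved nam8D library 1.

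Against hsh49::Q24P they were 6.68 for LEU2, 1.60 for INO1 and 1.27 for YGP1 upwards, and -1.19 for RPS22B and -1.14 for SEO1 downwards. No explanation of these differences was tested.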

How the results depend on the processing

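Rises of mud1D in starvation numbered 1820, and 1209 after centring, 1167 after quantile normalization, 1161 with trimmed mean scaling and 677 with spike-in scaling. Falls numbered 959, and 2023 with spike-in scaling. Against WT, 257 higher became 84 with spike-in scaling, and 617 lower became 383 with a pseudocount of 5 and 1822 with spike-in scaling. Against nam8D, 28 higher became 47 after centring, 43 after quantile normalization, 8 with spike-in scaling and 51 with library weights, and leaving out 1 library gave 15 to 68. The 53 lower became 23 with a pseudocount of 5, 33 after centring, 34 with trimmed mean scaling and 0 with spike-in scaling, and 17 to 98 with 1 library left out. The lowest counts came without starved nam8D library 1 and the highest without starved mud1D library 3. Against hsh49::Q24P, 4 higher became 7 with a pseudocount of 0.1, 1 with only the compared groups and 37 with library weights, and 2 to 26 with 1 library left out. The 3 lower became 0 with spike-in scaling, 0 with only the compared groups and 91 with library weights, and 2 to 17 with 1 library left out. In both directions the highest count came without starved hsh49::Q24P library 2. The cause was not tested. Beside these counts of 0, limma's model of all libraries had 684 genes at an unadjusted p under 0.05, in both directions together, against hsh49::Q24P and 1931 against nam8D.

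With the replicate block the counts were 1820 and 959 for starvation, 258 and 611 against WT, 26 and 53 against nam8D, and 3 and 3 against hsh49::Q24P. No named gene with a call reversed its direction under any alternative run, and the other called genes were not checked for this. Of the counts, 150 lay within 1.5 times of the main value and 38 did not. The other results were medians of lists and values of named genes, each taken once per alternative. Of these values 8403 stayed on their side of the threshold or, for lists, within the spread between libraries. In 248 a named gene lost its call and in 59 it gained one. In the other 144 the median of a list moved by at least that spread. Low genes are limited by the pseudocount, since differences below about 1 TPM shrink towards 0.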

Other observations

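The most abundant RNA of starved mud1D cells in the table was that of CUP1-2, the copper-binding metallothionein, chosen for mention after its values were seen. CUP1-2 was at 9944, 12639.7 and 4872 TPM in log phase and 28504, 37625 and 35947 TPM in starvation (1.99 ± 0.31). Its near-identical copy CUP1-1 was listed at 1169.8 TPM and 903 TPM in log-phase libraries 1 and 2, at 0 in the third, and at 3032, 1344 and 3495 TPM in starvation, so the split between the copies is uncertain. SPO24, a small sporulation-related gene, went from 674, 749 and 598 TPM to 10706, 8369 and 6299.8 TPM (3.62 ± 0.16), and HOR7, a gene of the hyperosmotic response, from 3441, 3579.8 and 2711 TPM to 9064, 9552 and 8959 TPM (1.51 ± 0.11). TMA10, which associates with ribosomes, went from 1600.3, 1372 and 967 TPM to 5669, 5935 and 5903 TPM (2.18 ± 0.16). SPO24, HOR7 and TMA10 rose in limma's test and lay above log phase in every starved library, and none of them was called against WT.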
